A study of Mus musculus with 9 samples.

Results

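CRTAM, DNAM-1 (the product of Cd226), CD96 and TIGIT are receptors of killer lymphocytes, and their ligands are nectin-like adhesion proteins on the cells that they meet. The genes described are the receptors Crtam, Cd226, Cd96 and Tigit and the ligands Cadm1 and Pvr, across all 9 arrays of a mouse expression series. The 6 genes were chosen with their values known, as receptors of killer cells set against ligands of dendritic cells. Of 34945 probe sets with 1 gene symbol, 14 belonged to these genes, and they covered 5 of the 6. Tigit was not represented by a probe set with that symbol and is not analysed here. Of the 18193 genes represented in the series, 10916 passed the filter on low levels and were tested, among them Crtam, Cd96, Cadm1 and Pvr, while Cd226 did not pass.

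CRTAM is displayed by activated NK cells and cytotoxic T cells and binds CADM1, also called Necl-2, a protein of the dendritic cells that are specialised in cross-presentation. DNAM-1 is an activating receptor whose ligands are PVR, also called CD155 or Necl-5, and nectin-2. CD96 and TIGIT bind the same PVR and compete with DNAM-1 for it, so the outcome of a contact depends on which receptor the killer cell carries.

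The groups were interferon-producing killer dendritic cells (IKDC), which were named for sharing features of NK cells and dendritic cells, natural killer cells (NK) and conventional dendritic cells (CDC). All came from naive BALB/c mice of 6 to 8 weeks and were sorted fresh, with no treatment. Each cell type had 1 array from lymph node and 2 from spleen. The labels used here give neither the gates of the sorts nor the number of mice behind an array, or whether mice were pooled. The p-values therefore measure only the spread between these arrays. Levels are log2 normalized intensities of 1 probe set per gene. A difference is between log2 levels, with the standard error (SE) that limma fitted. Levels of different genes are not compared, because each comes from its own probes.

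The NK and conventional DC markers matched the labels for CDC and for NK, except that spleen NK array 1 was also high in Itgax, H2-Aa and Cd74. The T cell markers, given further below, had their highest summed intensity on the lymph node NK array. All 9 NK markers that were represented lay at or above the filter level of 5.31 on the 3 IKDC and the 3 NK arrays, and 6 to 9 of them did so on the CDC arrays. Their summed intensity was 22926 to 28465 units on IKDC arrays, 29746 to 47477 on NK arrays and 723.5 to 1863 on CDC arrays. All 10 conventional DC markers reached the filter level on the 3 CDC arrays, and 8 to 10 of them on the IKDC arrays against 4 to 8 on the NK arrays. Ncr1, a natural cytotoxicity receptor gene, read 10.97 to 11.55 on the IKDC arrays, 11.62 to 12.18 on the NK arrays and 5.06 to 6.22 on the CDC arrays. Flt3, whose ligand drives dendritic cell development, read 8.69 on the lymph node IKDC array and 5.75 and 6.13 on the spleen IKDC arrays, against 5.22 to 5.77 on the NK arrays and 10.85 to 11.25 on the CDC arrays. Zbtb46, which marks the conventional DC lineage, read 5.42 to 6.20 on the IKDC arrays, 4.86 to 6.10 on the NK arrays and 8.63 to 8.86 on the CDC arrays. Itgax (CD11c) and H2-Aa (an MHC class II chain), named after their values were seen, read 11.32 and 10.89 on spleen NK array 1, against 7.27 and 6.62 on spleen NK array 2 and 8.19 and 9.60 on the lymph node NK array. The IKDC arrays read 10.88 to 11.24 for Itgax and 10.90 to 12.01 for H2-Aa. Cd74, also named after its values were seen, read 9.68 on spleen NK array 1. Cd86, Ciita, Dpp4, Btla and Kmo read 4.56 to 6.48 on that array, against 8.60 to 11.72 on the CDC arrays. The summed conventional DC markers of spleen NK array 1, 5993 units, exceeded those of spleen IKDC array 2, 4855 units. The spleen replicates divided by number in Xist, a transcript of female cells, which read 6.02 to 6.36 in the replicates numbered 1 and 11.43 to 12.49 in all other arrays. Eif2s3y, a gene of the Y chromosome, read 8.84 to 9.40 in the former and 2.76 to 4.28 in the latter. The replicates numbered 1 thus read as male and the other arrays as female. Each spleen mean joins both sexes, while each lymph node array read as female. Lymph node minus spleen therefore also differs in sex for every gene below, and the standard errors include any difference between the sexes. The part of sex was not tested. Median intensity was 23.4 units for spleen IKDC array 2 and 28.5 to 41.3 for the others. The spleen IKDC replicates agreed least, with r across the tested genes of 0.865, against 0.939 for NK and 0.948 for CDC. Genes more than 2-fold apart between replicates numbered 2140 for IKDC, 901 for NK and 897 for CDC.

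Crtam was highest in IKDC. Its level was 10.00 on the lymph node IKDC array and 11.31 and 10.34 on the spleen IKDC arrays. On the NK arrays it was 8.67 in lymph node and 9.30 and 7.43 in spleen. On the CDC arrays it was 4.53 in lymph node and 5.34 and 3.19 in spleen. Every IKDC array thus lay above every NK array, and every NK array above every CDC array, while the lymph node value lay inside the spleen range in NK and in CDC and below it in IKDC. All IKDC arrays above all NK arrays was the order of 4.83% of all genes, Crtam and Cadm1 among them. Among the 10916 genes, 115 (1.05%) had all 3 IKDC arrays above all NK and CDC arrays.

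**Figure D1:**
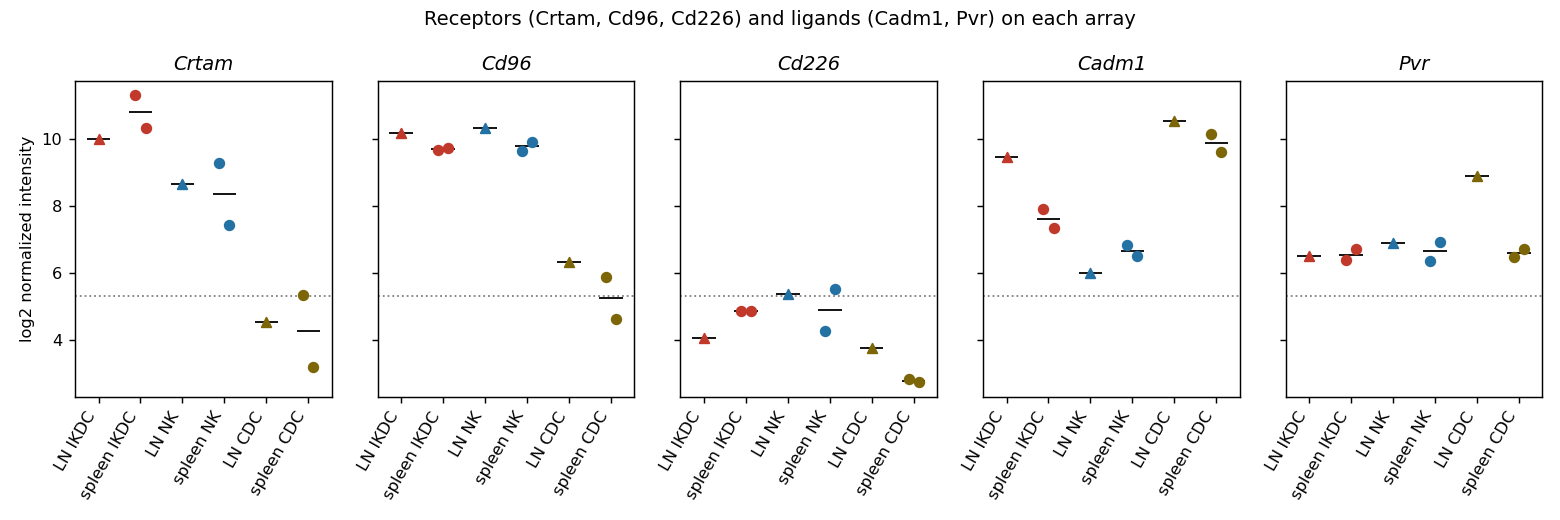
Level of each measured receptor and ligand on the 9 arrays, in log2 normalized intensity, with lymph node (LN) arrays as triangles, spleen arrays as circles and the group mean as a bar. The dotted line is the filter level of 5.31. All IKDC arrays lie above all NK arrays in Crtam, a difference not called in spleen, while in Cd96 they overlap.

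Spleen IKDC averaged 10.82 ± 0.69 for Crtam, spleen NK 8.36 ± 1.32 and spleen CDC 4.26 ± 1.52 (SD, n = 2 each). The choice of genes used the contrast of killer cells with CDC, so those differences are given without a test. They were 6.56 ± 0.87 (SE) for spleen IKDC minus CDC and 4.10 ± 0.87 for spleen NK minus CDC. The CDC mean lay below the filter level, and against that level Crtam was at least 45.7-fold higher in spleen IKDC and at least 8.31-fold higher in spleen NK. In lymph node it was at least 25.8-fold higher in IKDC and at least 10.2-fold higher in NK than in CDC, from 1 array each.

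Between spleen IKDC and spleen NK, a contrast that the rule for choosing the genes does not name, Crtam differed by 2.46 ± 0.87, or 5.50-fold. The pairs of arrays gave 2.01 for spleen 1, 2.91 for spleen 2 and 1.33 for lymph node, so IKDC was higher in 3 of 3 pairs. The test did not call it (limma, adjusted p = 0.857, unadjusted p = 0.0283). With the replicate number as a block the SE was 0.33, and limma did not call it either (adjusted p = 0.333, unadjusted p = 0.000179). In that contrast limma called 0 of the 10916 genes (0.00%), none of the 4 tested receptors and ligands among them, and 598 (5.48%) had an unadjusted p under 0.05. Since the genes were chosen with results of these arrays known, the p-values given for them are not independent evidence.

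Lymph node minus spleen, Crtam differed by -0.83 ± 1.07 in IKDC, 0.30 ± 1.07 in NK and 0.27 ± 1.07 in CDC (SE), with adjusted p = 0.946, 0.998 and 0.945 by limma. These differences were smaller than their standard errors. In lymph node minus spleen NK limma called 0 genes (0.00%), and 628 (5.75%) had an unadjusted p under 0.05.

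Crtam also differed between the spleen replicates of each cell type. Array 1 was above array 2 in IKDC, in NK and in CDC, the same division as for Xist and Eif2s3y. The part of sex in this was not tested. Spleen NK array 1, the one high in Itgax, H2-Aa and Cd74, was the NK array with the highest Crtam. Without it IKDC minus NK in spleen was 3.40, and without spleen NK array 2 it was 1.52. Because cytotoxic T cells carry Crtam, Cd226, Cd96 and Tigit as well, T cell markers are given beside them. Of the 11 that were represented, 6 to 9 reached the filter level on IKDC arrays, 5 to 10 on NK arrays and 2 to 4 on CDC arrays. Their summed intensity was 3442 to 4373 units on IKDC arrays, 2363 to 6328 on NK arrays and 649.7 to 1209 on CDC arrays. Cd3e, a chain of the T cell receptor complex, was at 4.19 to 5.58 on IKDC arrays and at 5.04 and 5.85 on the spleen NK arrays, and reached 8.15 on the lymph node NK array alone. The other chains, named after their values were seen, were above the filter level on all IKDC and NK arrays. Cd3g was at 7.58 to 9.10 on IKDC arrays, 7.06 to 9.31 on NK arrays and 4.30 to 5.04 on CDC arrays, and Cd3d at 7.57 to 8.07, 6.66 to 8.81 and 3.28 to 3.63 in the same order. In spleen both were higher on the IKDC than on the NK arrays. In lymph node both were lower on the IKDC array, at 8.27 against 9.31 for Cd3g and 8.07 against 8.81 for Cd3d. Cd8b1 and Cd4, also named after their values were seen, went the other way. Cd8b1 was at 8.78 on the lymph node IKDC array against 4.51 on the NK array, and Cd4 at 9.30 against 6.03. The other T cell markers represented were lower on the lymph node IKDC array. Crtam was higher on IKDC than on NK arrays in both organs. The part of T cells or of these transcripts in the levels of Crtam was not tested.

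Cd96 was high in IKDC and NK alike. Its level was 10.20 on the lymph node IKDC array and 9.68 and 9.72 on the spleen IKDC arrays, against 10.34 on the lymph node NK array and 9.66 and 9.90 on the spleen NK arrays. On the CDC arrays it was 6.34 in lymph node and 5.88 and 4.61 in spleen. The IKDC and NK arrays overlapped, and all 6 lay above the 3 CDC arrays, as was the case for 1385 of all tested genes (12.7%). That last share is given for scale only, since the genes were chosen on this contrast.

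Spleen IKDC averaged 9.70 ± 0.03 for Cd96, spleen NK 9.78 ± 0.17 and spleen CDC 5.25 ± 0.89 (SD, n = 2 each). IKDC minus NK was -0.08 ± 0.43 (SE, limma adjusted p = 0.98), and the 3 pairs gave 0.02, -0.18 and -0.14. The CDC mean was just below the filter level, against which Cd96 was at least 21.0-fold higher in spleen IKDC and at least 22.2-fold higher in spleen NK, a description with no test. Between lymph node and spleen, Cd96 differed by 0.50 ± 0.52 in IKDC, 0.56 ± 0.52 in NK and 1.09 ± 0.52 in CDC, with adjusted p = 0.925, 0.959 and 0.449 by limma. Each lymph node value is 1 array, which the fit takes to vary like the spleen arrays.

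Cd96 is the receptor with both measured values and a promoter sequence at hand, and this sequence is printed as the start region of a gene shared by the IKDC and NK arrays. Of the 6 genes, 2 had an entry among the RefSeq promoters. The window runs from 250 bases before to 50 bases after the start on the minus strand of GRCm38.p6, at chr16:46120199-46120498. Capitals mark the motif matches.
Cd96: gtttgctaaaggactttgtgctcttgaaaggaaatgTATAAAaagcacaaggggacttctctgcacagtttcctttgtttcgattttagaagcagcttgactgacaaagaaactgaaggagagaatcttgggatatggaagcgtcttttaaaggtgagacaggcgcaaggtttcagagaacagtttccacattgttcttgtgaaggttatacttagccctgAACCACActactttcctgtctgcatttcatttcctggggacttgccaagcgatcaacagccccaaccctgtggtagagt

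Motifs were searched on both strands, and none overlapped another. The Runx motif TGTGGTT matched once, on the reverse strand, beginning 29 bases before the start. It occurred in 5.27% of the 32851 mouse promoter windows of this length. The TATA box letters TATAAA matched once, 214 bases before the start, and occurred in 13.6% of windows. The T-box motif AGGTGTGA, present in 1.28% of windows, and the Ets motif AGGAAG, present in 35.4%, had no match in these letters.

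Cd226 was near background on every array. Its only probe set read 4.05 on the lymph node IKDC array and 4.86 on both spleen IKDC arrays. The NK arrays read 5.37 in lymph node and 4.27 and 5.52 in spleen, and the CDC arrays 3.74 in lymph node and 2.82 and 2.73 in spleen. Of the 9 arrays, 2 passed the filter level, the lymph node NK array and spleen NK array 2. As deposited, the intensities were 13.0 to 23.3 units on IKDC arrays, 10.7 to 39.8 on NK arrays and 0.2 to 9.1 on CDC arrays. All IKDC and NK arrays lay above all CDC arrays, with IKDC inside the NK range in spleen, but no fold is given for levels this low and the gene was not tested. A low reading of 1 probe set does not separate a low transcript from a weak probe.

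Cadm1, the ligand of CRTAM, was highest in CDC and was higher in IKDC than in NK. On the IKDC arrays its level was 9.45 in lymph node and 7.90 and 7.34 in spleen. On the NK arrays it was 5.98 in lymph node and 6.84 and 6.49 in spleen. On the CDC arrays it was 10.53 in lymph node and 10.16 and 9.62 in spleen. All 3 IKDC arrays lay between the NK and the CDC arrays with no overlap, an order found in 142 of the tested genes (1.30%). With all IKDC and NK arrays below all CDC arrays there were 1219 genes (11.2%), a share given for scale only.

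Spleen IKDC averaged 7.62 ± 0.40 for Cadm1, spleen NK 6.66 ± 0.25 and spleen CDC 9.89 ± 0.38 (SD, n = 2 each). Against CDC it was 4.82-fold lower in spleen IKDC (-2.27 ± 0.33, SE) and 9.37-fold lower in spleen NK (-3.23 ± 0.33), given without a test because the genes were chosen on this contrast. Spleen IKDC minus NK was 0.96 ± 0.33, or 1.94-fold, which limma did not call (adjusted p = 0.857, unadjusted p = 0.0257). With the replicate number as a block the SE was 0.22, and limma did not call it either (adjusted p = 0.333, unadjusted p = 0.00414). IKDC was higher in 3 of 3 pairs, by 1.07 in spleen pair 1, 0.85 in spleen pair 2 and 3.47, or 11.1-fold, in lymph node.

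Lymph node IKDC differed from spleen IKDC in Cadm1 by 1.83 ± 0.41, or 3.56-fold (limma, adjusted p = 0.295, unadjusted p = 0.00346), and the lymph node array lay 1.55 above the higher of the spleen arrays. In the same contrast of organs NK differed by -0.68 ± 0.41 (adjusted p = 0.939) and CDC by 0.64 ± 0.41 (adjusted p = 0.571). The IKDC minus NK difference was larger in lymph node than in spleen by 2.51 ± 0.58, with adjusted p = 0.921 and unadjusted p = 0.00401 for the interaction. Limma called 0 genes (0.00%) between lymph node and spleen IKDC and 0 genes (0.00%) in this interaction, while 744 (6.82%) and 303 (2.78%) had an unadjusted p under 0.05. By unadjusted p Cadm1 ranked 128 of 10916 in the first and 46 in the second.

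**Figure D2:**
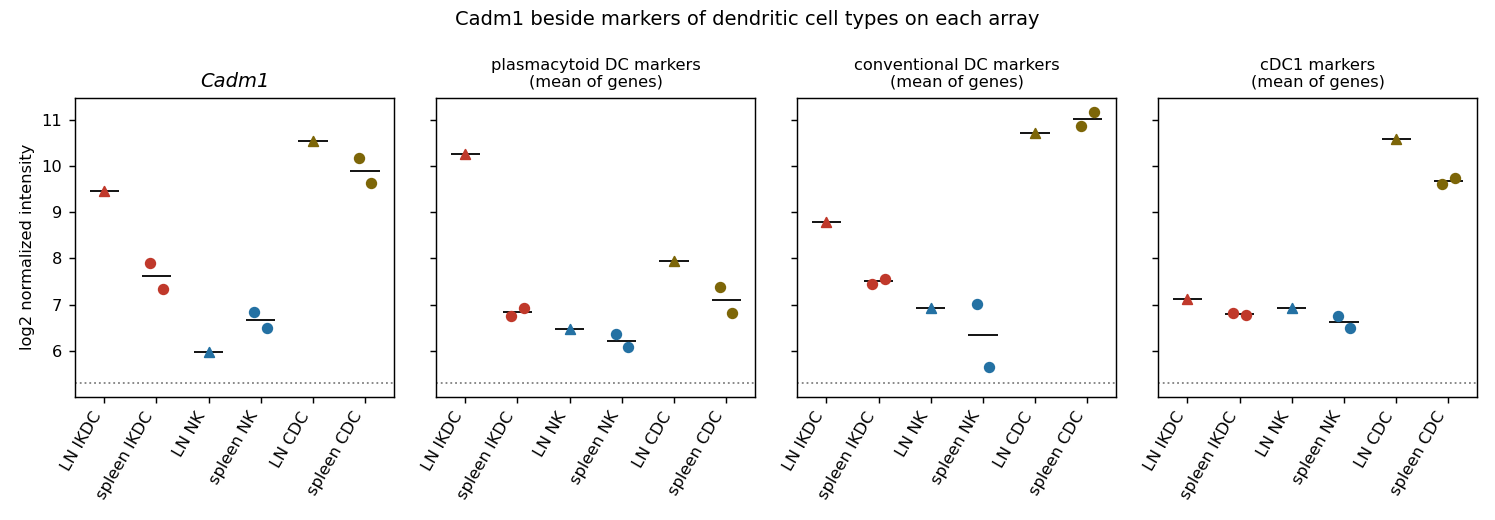
Cadm1 and the mean level of markers of plasmacytoid, conventional and cross-presenting (cDC1) dendritic cells on the 9 arrays, in log2 normalized intensity, with lymph node (LN) arrays as triangles, spleen arrays as circles, the group mean as a bar and the filter level dotted. The lymph node IKDC array is high in Cadm1 and in the plasmacytoid markers, at a mean of 10.26.

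Markers of other dendritic cells and of B cells were also higher on the lymph node IKDC array than on the spleen IKDC arrays. All 8 plasmacytoid DC markers were represented, and their summed intensity was 12318 units there, 1114 to 1812 on the spleen IKDC arrays, 819.0 to 1045 on the NK arrays and 1282 to 3305 on the CDC arrays. Siglech, a lectin of plasmacytoid cells named here after its values were seen, was at 10.78 on that array and at 5.45 and 6.51 on the spleen IKDC arrays. For conventional DC of the cDC2 type the 9 markers represented summed to 2866 units on that array, 1248 and 2256 on the spleen IKDC arrays, 1195 to 1464 on the NK arrays and 4880 to 8547 on the CDC arrays. The 7 B cell markers summed to 452.0 units there, 113.5 and 152.9 on the spleen IKDC arrays, 177.9 to 240.6 on the NK arrays and 387.4 to 790.5 on the CDC arrays. The summed conventional DC markers were 10213 units on the lymph node IKDC array, 4855 and 8406 on the spleen IKDC arrays, 584.6 to 5993 on the NK arrays and 28491 to 38735 on the CDC arrays. The part of such cells in the Cadm1 level was not tested. For cross-presenting DC the 9 markers represented summed to 3505 to 5345 units on IKDC arrays, 4303 to 6518 on NK arrays and 17560 to 22973 on CDC arrays. Their defining chemokine receptor Xcr1 was at 4.23 to 4.68 on IKDC arrays and 4.57 to 5.03 on NK arrays, all below the filter level, and at 7.91 to 9.59 on CDC arrays. In a sorted population, more cells with a transcript and more transcript per cell cannot be told apart.

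The Cadm1 probe sets told the same order. Of 4, the 3 that passed the filter level had all IKDC arrays above all NK and below all CDC arrays. Spleen IKDC minus NK was 0.96 for 1417378_at, the probe set used above, 1.95 for 1417377_at and 1.09 for 1417376_a_at. Lymph node minus spleen IKDC was 1.83, 2.33 and 1.76 in the same order of probe sets. With 1417377_at the lymph node IKDC array read 9.78 and the NK array 5.09, which is below the filter level, so IKDC was at least 22.3-fold higher. The fourth probe set, 1431611_a_at, averaged below the filter level and its IKDC and NK arrays overlapped.

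**Figure D3:**
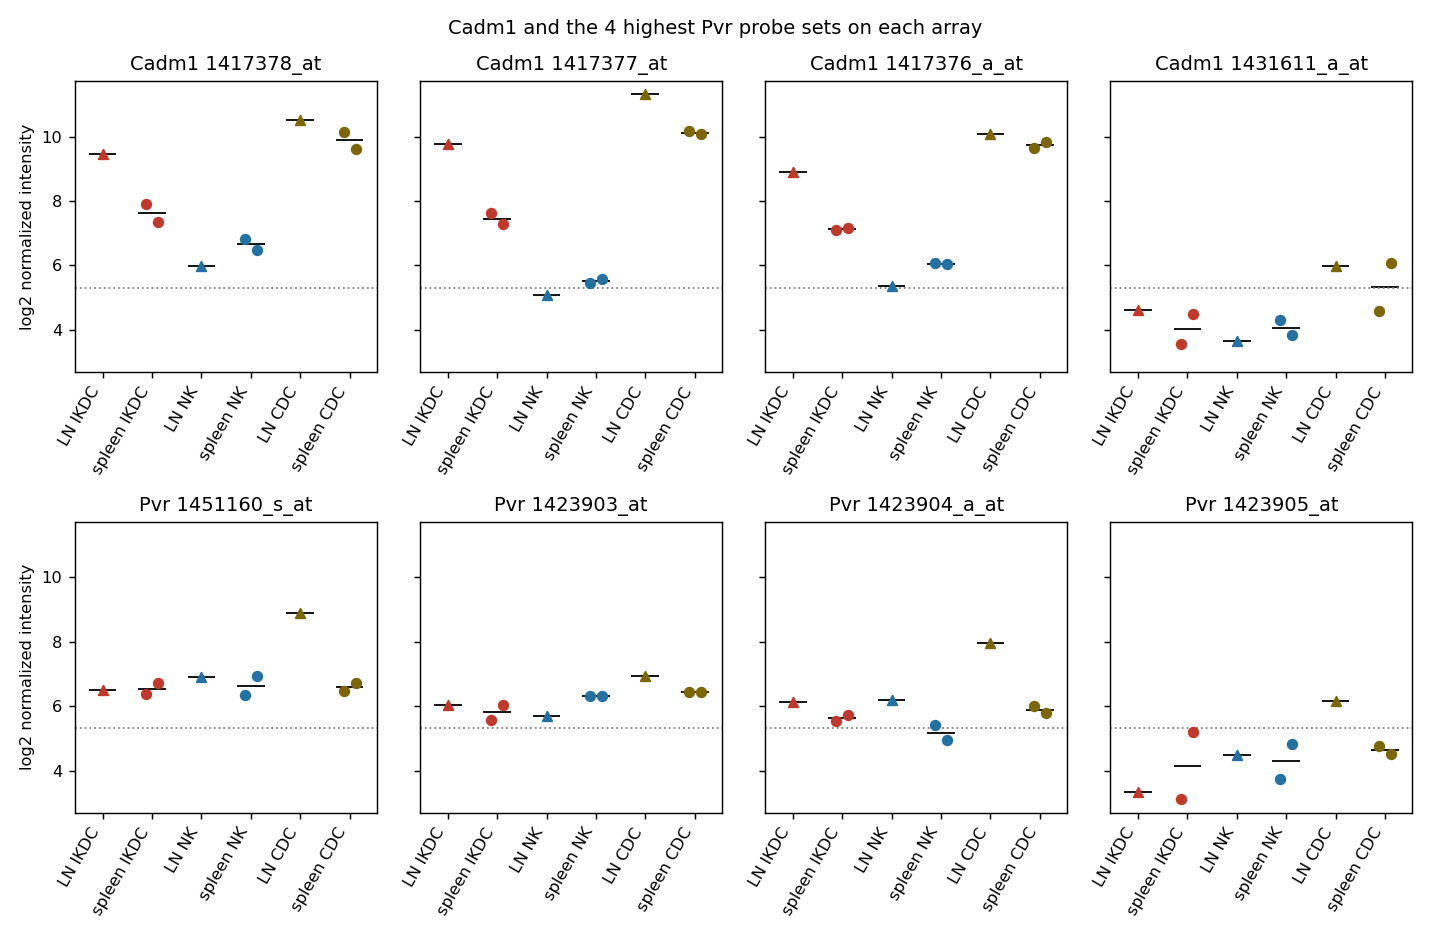
The 4 probe sets of Cadm1 (top) and the 4 highest of Pvr (bottom) on the 9 arrays, in log2 normalized intensity, with lymph node (LN) arrays as triangles, spleen arrays as circles, the group mean as a bar and the filter level dotted. The lymph node CDC array is the highest in all 4 panels of Pvr, by a margin that differs between probe sets.

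Pvr, the ligand shared by DNAM-1, CD96 and TIGIT, did not separate the cell types in spleen with its brightest probe set, and was highest on the lymph node CDC array. Its level was 6.52 on the lymph node IKDC array and 6.38 and 6.71 on the spleen IKDC arrays. The NK arrays read 6.90 in lymph node and 6.35 and 6.92 in spleen, and the CDC arrays 8.88 in lymph node and 6.46 and 6.71 in spleen. The spleen groups overlapped, at 6.55 ± 0.23 in IKDC, 6.64 ± 0.40 in NK and 6.59 ± 0.18 in CDC (SD, n = 2 each), and the lymph node CDC array stood apart from all 8 others.

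Lymph node CDC exceeded spleen CDC in Pvr by 2.30 ± 0.40 (SE), or 4.92-fold, which limma did not call (adjusted p = 0.126, unadjusted p = 0.000912). In this contrast 3 genes (0.0275%) were called and 1387 (12.7%) had an unadjusted p under 0.05, and Pvr ranked 79 of 10916 by p. The organ difference was -0.03 ± 0.40 in IKDC (adjusted p = 0.998) and 0.27 ± 0.40 in NK (adjusted p = 0.98). The organ difference of IKDC was lower than that of CDC by 2.33 ± 0.56 (interaction, adjusted p = 0.502, unadjusted p = 0.0052) and that of NK lower than that of CDC by 2.03 ± 0.56 (adjusted p = 0.779, unadjusted p = 0.00987). For these interactions limma called 0 genes (0.00%), with 615 (5.63%) and 583 (5.34%) at an unadjusted p under 0.05.

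The 7 Pvr probe sets disagreed in size. Lymph node CDC exceeded spleen CDC by 2.30 for 1451160_s_at, the probe set used above, 2.07 for 1423904_a_at, 1.52 for 1423905_at and 0.50 for 1423903_at. The last 3 probe sets gave 0.05, 0.05 and -0.47. Those 3 and 1423905_at averaged below the filter level. In spleen, the 2 other probe sets that passed the filter level separated the cell types without overlap, but in different orders. With 1423904_a_at, IKDC averaged 5.63, NK 5.17 and CDC 5.89. With 1423903_at, IKDC averaged 5.82, NK 6.31 and CDC 6.43. A probe set with the suffix s can also bind related transcripts, so the level of 1451160_s_at is uncertain. The lymph node CDC array was also the highest for summed macrophage markers, at 18207 units against 8817 and 8998 on the spleen CDC arrays, and for cross-presenting DC markers, at 22973 against 17560 and 17681. Their part in the Pvr level was not tested.

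The other genes around these receptors were taken from a list of 24, made up of nectins, further CADM proteins, the integrin partner of DNAM-1, signalling proteins below the receptors and the scaffolds that CRTAM, nectins and CADM1 bind. The list was made with earlier results of these data known, so its counts and p-values are not independent evidence. Of the 24, 22 were represented and 19 tested. Between spleen NK and CDC, 8 of 19 were called, 4 higher and 4 lower in NK, where 13.5% of all genes were called, 6.54% higher and 6.97% lower. Between spleen IKDC and CDC, 5 of 19 were called, 3 higher and 2 lower in IKDC, where 10.3% of all genes were called, 4.75% higher and 5.60% lower. An unadjusted p under 0.05 was reached by 10 of 19 for NK, against 26.0% of all genes, and by 11 of 19 for IKDC, against 23.5%. The median difference was -0.12 for NK minus CDC, against 0.06 over all genes, and -0.40 for IKDC minus CDC, against 0.04. Both comparisons use the same CDC arrays.

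**Figure D4:**
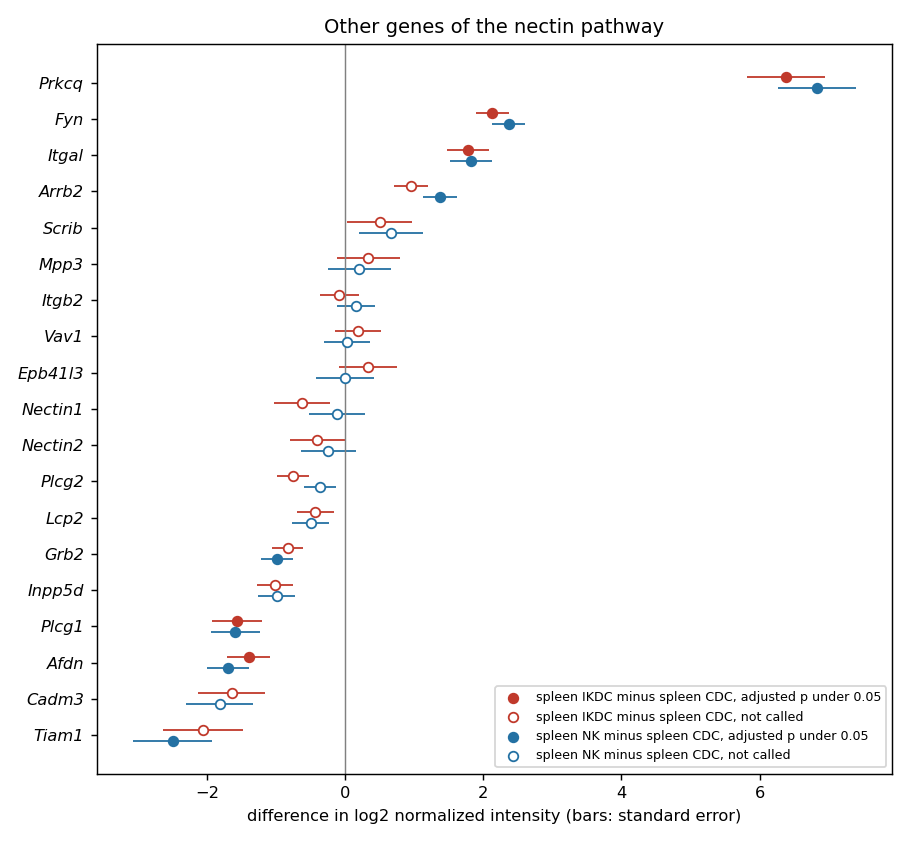
Difference from spleen CDC in log2 normalized intensity of the 19 tested genes of the list, for spleen IKDC (red, upper of each pair) and spleen NK (blue), with the standard error as a bar and filled points for adjusted p under 0.05. Prkcq, Fyn and Itgal were called higher in both, and Plcg1 and Afdn lower in both.

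The higher calls were the signalling genes Prkcq, Fyn and, in NK, Arrb2, and the integrin gene Itgal. Prkcq, the protein kinase C theta of T and NK cells, was at 10.52 ± 0.83 in spleen IKDC, 10.97 ± 0.28 in spleen NK and 4.13 ± 0.99 in spleen CDC (SD, n = 2 each). With CDC below the filter level it was at least 37.0-fold higher in IKDC (limma, adjusted p = 0.00178) and at least 50.5-fold higher in NK (adjusted p = 0.00101). Fyn, a Src family kinase that phosphorylates such receptors, was 4.38-fold higher in IKDC (adjusted p = 0.00329) and 5.15-fold higher in NK (adjusted p = 0.00167). Itgal, the alpha chain of LFA-1, with which DNAM-1 associates, was 3.42-fold higher in IKDC (adjusted p = 0.0152) and 3.55-fold higher in NK (adjusted p = 0.0109). Arrb2, a beta-arrestin that binds TIGIT in human cells, was 2.59-fold higher in NK (adjusted p = 0.0144) and differed by 0.95 ± 0.25 in IKDC (adjusted p = 0.0613).

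The lower calls were Afdn and, in NK, Tiam1 of the scaffold group, and Plcg1 and, in NK, Grb2 of the signalling group. These calls depended on the probe set used. With the mean of all probe sets, none of them remained in NK or in IKDC, where Grb2 was called instead. Prkcq, Fyn and Itgal stayed called in both, and Arrb2 in NK. Afdn, which encodes afadin, the protein that ties nectins to actin, was 2.63-fold lower in spleen IKDC (limma, adjusted p = 0.0371) and 3.24-fold lower in spleen NK (adjusted p = 0.0149) than in CDC. Plcg1, a phospholipase C, was 2.96-fold lower in IKDC (adjusted p = 0.0416) and 3.01-fold lower in NK (adjusted p = 0.0326). In lymph node, Plcg1 read 6.92 on the IKDC array, 8.32 on the NK array and 8.39 on the CDC array. Afdn, Tiam1 and Grb2 were lower on the lymph node IKDC and NK arrays than on the lymph node CDC array. Tiam1, a Rac activator that binds CADM1 in human cells, was 5.65-fold lower in NK (adjusted p = 0.0358) and differed by -2.06 ± 0.58 in IKDC (adjusted p = 0.0784). Grb2, an adaptor that couples receptor tails to downstream signalling, was 1.98-fold lower in NK (adjusted p = 0.0371) and differed by -0.83 ± 0.23 in IKDC (adjusted p = 0.0751).

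The nectins that were tested were not called in any cell type comparison of spleen. Nectin2, the other DNAM-1 ligand, was at 5.08 ± 0.19 in spleen IKDC, 5.24 ± 0.26 in spleen NK and 5.48 ± 0.38 in spleen CDC, around the filter level. Nectin1, which CD96 binds in mice, was at 6.14 ± 0.74, 6.65 ± 0.19 and 6.77 ± 0.11 in the same order. Cadm3, a relative of Cadm1 named after its values were seen, was at 5.78 ± 0.93 in IKDC, 5.61 ± 0.34 in NK and 7.42 ± 0.01 in CDC (SD, n = 2 each), with adjusted p = 0.0938 for IKDC and 0.0597 for NK against CDC by limma.

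Between spleen IKDC and NK, 0 of the 19 genes were called and 0 had an unadjusted p under 0.05, with a median difference of -0.02 against -0.01 over all genes. With the replicate number as a block, the count for IKDC against CDC was 10 of 19 (all 5 calls kept), and that for NK against CDC was also 10 (all 8 kept). Without spleen CDC array 1 the counts were 2 for IKDC and 3 for NK, while over all genes 465 and 729 were called. Without spleen CDC array 2 they were 2 and 2, with 360 and 515 over all genes. The NK count was 2 without spleen NK array 1 (677 over all genes) and 3 without spleen NK array 2 (669). With all arrays, 1129 genes were called for IKDC and 1475 for NK. Fyn and Prkcq were called under each of these omissions.

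The genes nearest to each receptor or ligand were found by the root mean square (RMS) difference of log2 levels over the 9 arrays, each gene centred on its own mean. For Crtam they were Cd163l1, at 0.74, Xcl1, Gimap7, Gpr174 and Nsg2, at 0.96, where the median over all genes was 2.69. For Cd96 they were Gzma, at 0.30, Stk26, Zap70, Nlrc3 and Cobll1, at 0.38, against a median of 2.10. For Cadm1 they were Fmnl2, at 0.42, Bcl11a, Ly6e, Myo5a and St8sia1, at 0.49, against 1.67. For Pvr they were E130311K13Rik, at 0.23, Cetn4, Hydin, Acta2 and 2410022M11Rik, at 0.33, against 0.88. These distances describe 9 arrays of 3 cell types and carry no test.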

How the data were processed

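The arrays were Affymetrix arrays hybridised with biotinylated cRNA from 6 µg of total RNA, per the labels' protocols. Each value the authors deposited is an intensity on a linear scale for 1 probe set. The labels used here do not name the software or normalization behind it. The table held 45101 probe sets and 0 missing values. Gene symbols came from the platform annotation supplied with the data.

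For this re-analysis an offset of 6.49 units, the 20th percentile of all values, was added, log2 was taken and the arrays were quantile normalized without the 64 control probe sets. Each gene was represented by its single-symbol probe set with the highest mean, and genes under the 40th percentile of the means, a log2 level of 5.31, were not tested. That level also served as the bound wherever a fold is given as at least. Groups were compared by limma (version 3.58.1, R version 4.3.3) with 6 group means, eBayes with a trend and Benjamini-Hochberg adjustment over all genes, at 0.05. All 3 residual degrees of freedom come from the spleen pairs. The fit was tested on simulated data.

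The genes and lists were chosen with earlier results of these data known. The rule for named genes took the 6 members, up to 8 called list genes per direction and comparison, the nectins and the 5 nearest genes. Pvrig, Cadm2 and the marker Clec9a were not represented by a single-symbol probe set. Replicate numbers are not said to mark a shared sort, but spleen arrays of the same number deviated alike from their group means, with r across genes of 0.485 for IKDC and NK, 0.529 for IKDC and CDC and 0.412 for NK and CDC. The number was used as a block in an alternative fit. In spleen the number divides the arrays as Xist and Eif2s3y do. The block therefore also takes up any difference between the sexes and cannot separate it from other differences between replicates. The other alternatives concerned scaling, offset, filter, probe set summary, spread, the arrays included and each spleen array left out. The number of arrays limits the precision.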

Additional observations from a re-analysis of the deposited data

How the results depend on the processing

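The alternatives were other scalings, offsets, filters, probe set summaries and spread settings, spleen arrays alone, an additive model, a replicate block and each spleen array left out. The additive model fitted cell type and organ over all 9 arrays, so its difference between cell types joins both organs. No setting called a receptor or ligand between spleen IKDC and NK, between organs or in an interaction (limma). The lowest adjusted p over the settings was 0.333 for Crtam and 0.304 for Cadm1 in spleen IKDC minus NK, 0.148 for Cadm1 in lymph node minus spleen IKDC and 0.0761 for Pvr in lymph node minus spleen CDC. The directions of these 4 differences held in all settings of the fit. Single probe sets differed: 1431611_a_at gave -0.03 for Cadm1 in spleen IKDC minus NK and 1429848_at gave -0.47 for Pvr in CDC, both averaging below the filter level. Crtam in spleen IKDC minus NK ranged from 1.52 to 3.40 and Cadm1 from 0.68 to 1.80. The 1.80 came from the additive model, so it includes the lymph node difference of 3.47. Pvr in CDC ranged from 0.86, with the mean of all probe sets, to 2.43. Pvr did not pass the filter at the 60th percentile.

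The listed genes called between spleen NK and CDC were 4 with the mean of all probe sets, against 8, and 2 to 10 with a replicate left out, where the calls over all genes were 1425, against 1475, and 515 to 1916. Between spleen IKDC and CDC the count of 5 became 3 with intensities as deposited and 3 with no filter, 10 with the replicate block, 10 with the additive model, and 2 to 5 with a replicate left out, where all genes called were 1129 with all arrays, 1121 as deposited, 972 with no filter, 1897 with the additive model and 360 to 1399. The block called 0 list genes between IKDC and NK and changed no other call of a receptor or ligand. It needs the spleen replicates and gave no value for the organ contrasts. Over all genes it called 1904 between IKDC and CDC, against 1129, and 2304 between NK and CDC, against 1475.

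Differences that were not called changed sign in these cases. Pvr in lymph node minus spleen IKDC was 0.17 with intensities as deposited, 0.060 with arrays shifted to the same 75th percentile, 0.10 with the mean of all probe sets and -0.19 to 0.13 with a replicate left out. With a replicate left out, the ranges were -0.38 to 0.19 for Pvr and -0.20 to 0.041 for Cd96 in IKDC minus NK, -0.020 to 0.55 for Pvr and -0.63 to 1.24 for Crtam in lymph node minus spleen NK, and -0.81 to 1.35 for Crtam in lymph node minus spleen CDC. Pvr against CDC in spleen was near 0 and not tested. Over all settings of the fit it ran from -0.82 to 0.12 for IKDC and from -0.63 to 0.34 for NK. Both lowest values came from the additive model, whose difference joins spleen and lymph node. In lymph node, the differences from CDC were -2.37 for IKDC and -1.98 for NK, from 1 array each. The cause of the other changes was not tested. A lone array was taken to vary like the other groups.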

Other observations

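Other relatives of the ligands lay near background. Nectin3, an adhesion protein that binds other nectins, averaged below the filter level and was not tested, and it read 5.40 on the lymph node IKDC array and 6.55 and 4.71 on the spleen IKDC arrays, against 4.23 to 4.68 on the NK arrays and 2.93 to 4.12 on the CDC arrays. Nectin4 read 4.31 to 4.78 on IKDC arrays, 3.10 to 4.11 on NK arrays and 5.01 to 5.46 on CDC arrays. Cadm4, a relative of Cadm1 that was also not tested, read 6.19 on the lymph node IKDC array, 5.80 and 4.59 on the spleen IKDC arrays, 4.20 to 5.03 on the NK arrays and 4.89 to 6.02 on the CDC arrays.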
